A study of Mus musculus with 9 samples.

Results

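Nav3 encodes neuron navigator 3, and the data described here are the transposon insertions listed under it in SHH medulloblastomas of Lazy Piggy mice. The lines were those that name Nav3 as the gene, in tumours (Sample_ID PT) of animals labelled TAM+ or TAM- in the authors' sheet. These were 7266 lines of the 3961094 in the whole table, and Nav1 and Nav2, its family members on other chromosomes, had 285 and 1056 lines under the same rule. Nav3 was chosen by its number of animals with called IR sites in each arm, so those counts are given as a description and carry no test.

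The Lazy Piggy element joins parts of the transposons Sleeping Beauty (SB) and piggyBac (PB), and its insertions were read from tumour DNA in 3 kinds of library. IR libraries were amplified from the SB part, PB libraries from the PB part and JX libraries from the boundary between them, each from a left and a right end. There were 72 animals with tamoxifen, of which 53 carried the element on donor chromosome 10 and 19 on donor chromosome 7. The 47 untreated animals comprised 37 with donor chromosome 10 and 10 with donor chromosome 7. Every sample was labelled lazy_piggy, and no further allele, strain, age, tamoxifen dose or driver of the transposases is given in the sources used here. The sheet lists 4 to 249 days for the tamoxifen animals (median 49, 71 animals with 1 listed value). The animal was the replicate, and animals are named here by arm and a number. Insertion libraries hold no expression, so the tissue label was not checked against marker genes.

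Neuron navigators are large cytoplasmic proteins that bind microtubules, in part at their growing plus ends, and are related to UNC-53 of Caenorhabditis elegans, which guides cell migration and process outgrowth there. The family is best known from neurons, where members act in neurite outgrowth and migration. They are unrelated to the voltage-gated sodium channels that share a similar abbreviation.

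A site was called in an animal when positions within 10 bp held at least 10 counts together and at least 1% of the counts of that animal's highest site in that kind of library. Where several animals had a call at 1 site, only the animal with the largest share there was counted. In DNA of a whole tumour, the share of cells that carry an insertion and how well its junction amplified cannot be told apart. These PCR counts carry no molecular identifiers and do not stand for independent molecules. The intervals given are on numbers of animals, and cover the sampling of animals but not errors in the calls. Total counts per animal ranged from 295999 to 6337624 in IR, from 116836 to 2025775 in JX and from 1714 to 2853048 in PB.

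In mm9 the Nav3 lines lie on chromosome 10 between positions 109020780 and 109536945. The gene is on the minus strand, and the distances given for all 1314 positions outside its body point to a start site at 109437275. Listed body positions run from 109120557 to 109437226, over 316.67 kb with introns numbered up to 38. Intron 1 covered 95.9 kb, or 30.3% of the body. For positions past the gene end, the table's distances (316.8 to 416.5 kb) are also counted from the start site and so contain the body.

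IR libraries held 11 called sites under Nav3 in 11 animals, JX libraries 27 in 18 animals and PB libraries 17 in 13 animals. Counts listed under Nav3 made up 0.514% of all IR counts, 0.105% of JX counts and 0.306% of PB counts of the 119 animals. Every one of the 119 animals listed at least 1 IR line under Nav3, with a median of 6 counts per line. Of the sites with at least 10 counts, 2072 in IR, in 107 animals, stayed below the 1% threshold. The weakest called IR sites held 1.10% and 1.11% of their animal's highest site, and the strongest uncalled ones 0.915% and 0.828%.

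The IR site with the most counts lay in intron 33 at position 109136654, 300.6 kb from the start site, in tamoxifen animal 23. It held 961168 counts, 26.5% of the animal's IR counts, and was the highest IR site of that tumour. The same tumour had 27242 JX counts within 100 bp and 8200 PB counts within 300 bp of it, and the position ranked second among its JX sites. Untreated animal 45, sequenced in the same lane 7, had 5909 IR counts (0.198%) at this position in the other orientation. That second call was credited to tamoxifen animal 23 and is not counted.

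A further 4 IR sites held over 1% of their animal's IR counts. In untreated animal 24 a site past the gene end at 109111820 held 5.73%. In tamoxifen animal 55 a site in intron 1 at 109387997 held 5.63% and ranked second, and in tamoxifen animal 30 a site in intron 7 at 109293624 held 3.48%. The site of tamoxifen animal 65 in intron 9, at 109268223, held 1.33% and also ranked second, at 2.13% of that animal's highest site. These 5 sites were thus in 4 tamoxifen animals and 1 untreated animal. The other 6 IR sites held 0.0607% to 0.329% of their animal's counts. They lay in introns 29, 22, 12, 8 and 1 and past the gene end, and 1 of them was in an untreated animal. The median over the 11 sites was 0.329%, against 0.655% over all called IR sites.

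**Figure D1:**
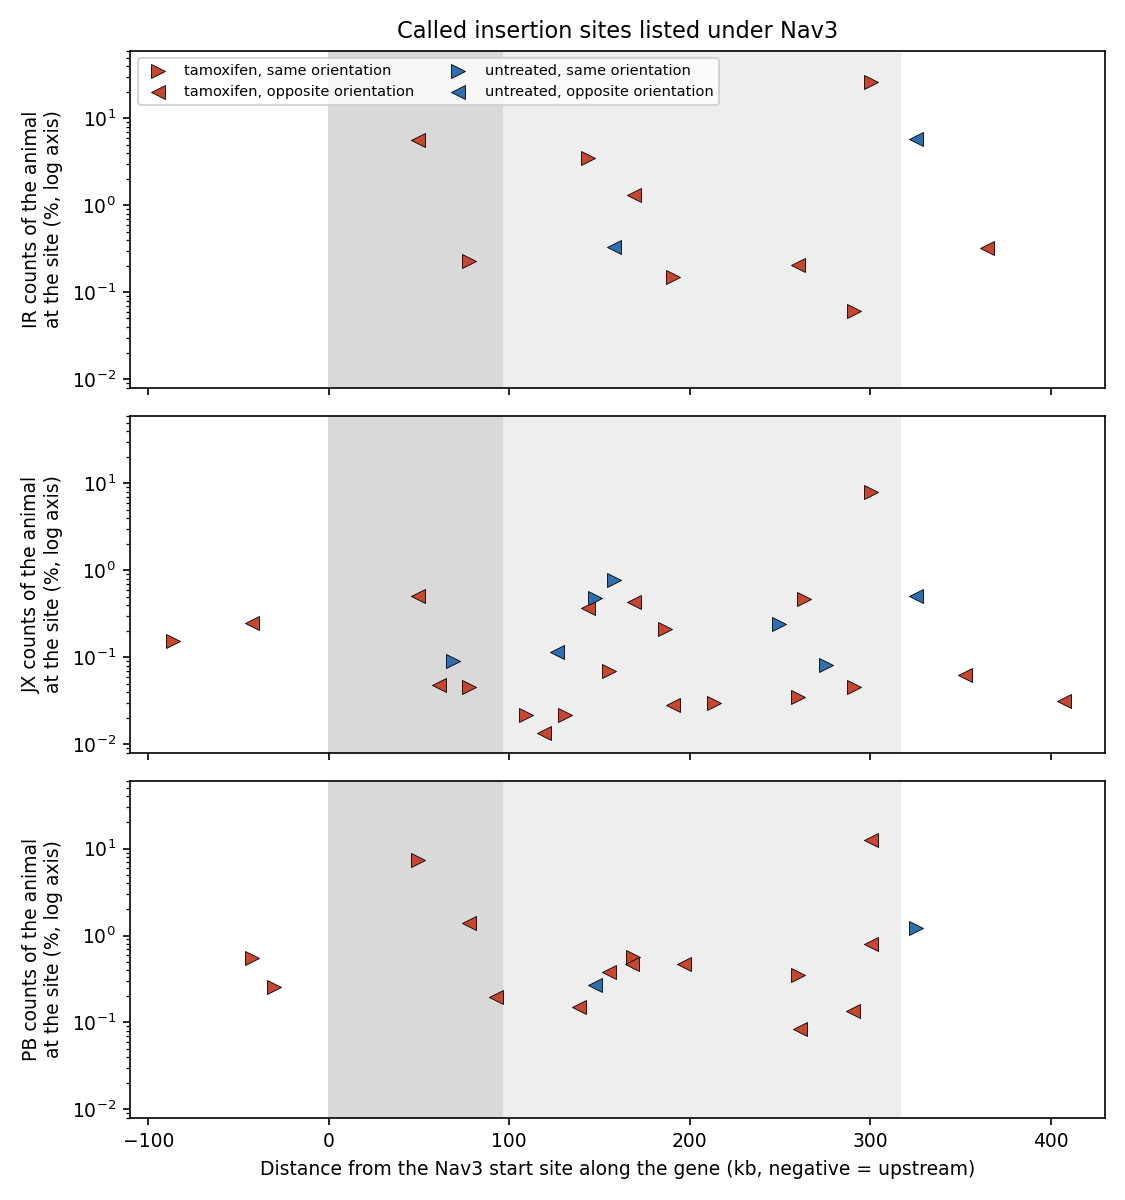
Called sites under Nav3 by distance from the start site (x axis, kb, negative upstream) and by the share of the animal's counts at the site (y axis, %, log scale) in IR, JX and PB. Red points are tamoxifen and blue points untreated animals, triangles to the right are listed in the orientation of the gene and to the left in the opposite one (PB labels as listed, which run against those of IR), light grey marks the body and dark grey intron 1; sites lie along the whole body, and the highest point in each panel is tamoxifen animal 23 at about 300.6 kb.

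All called sites inside the body lay in introns, of which 9 were IR, 22 JX and 14 PB sites. The table lists each of them as disrupting the coding sequence, against 82.4% (IR), 82.8% (JX) and 80.7% (PB) of the called body sites of all genes. Exonic sites made up 5.67%, 5.38% and 7.46% of called body sites of all genes. Intron 1 held 2 of the 9 body sites in IR, 4 of 22 in JX and 3 of 14 in PB. The 9 IR body sites were spread over 8 different introns. Past the gene end there were 2 IR sites, 3 JX sites and 1 PB site, and upstream there were 2 JX sites and 2 PB sites.

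Of the 11 IR sites, 10 (90.9%) had JX counts of the same animal within 100 bp, and 10 had PB counts within 300 bp. The same shares over the other 2298 called IR sites were 82.2% and 83.3%. The exception was the site of tamoxifen animal 46 in intron 12, with 439 IR counts and no JX or PB count nearby. That animal had 334 called IR sites, the most of any, and the shallowest IR total (295999 counts). At the site of tamoxifen animal 65 the match rested on 1 PB count beside 39352 IR counts. The remaining matches held 13 to 27242 JX counts and 15 to 79932 PB counts.

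**Figure D2:**
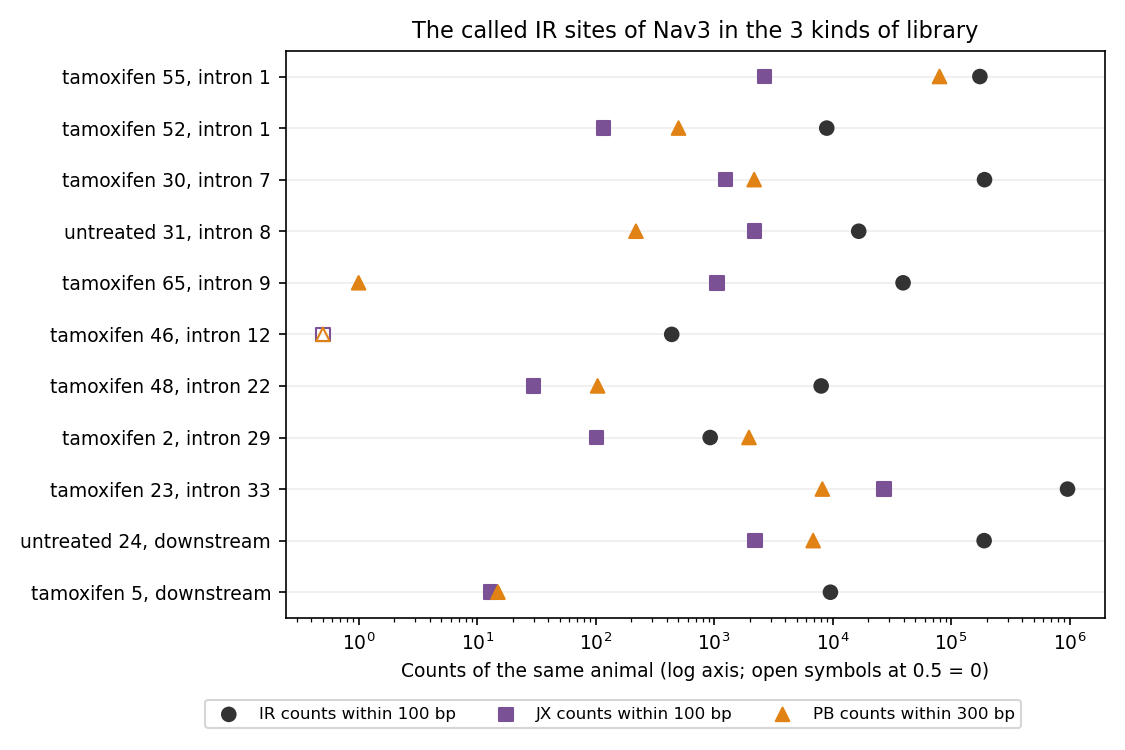
Counts of the same animal (x axis, log scale) at each of the 11 called IR sites of Nav3 (y axis, ordered from the start site at the top), with IR counts as circles, JX counts within 100 bp as squares and PB counts within 300 bp as triangles; open symbols stand for 0. IR counts exceed the others except in tamoxifen animal 2, which had 927 IR, 102 JX and 1970 PB counts, and tamoxifen animal 46 had IR counts alone.

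Across the 3 kinds of library, 23 animals had a called site under Nav3 in at least 1 kind, and 7 had one in all 3. The 7 were tamoxifen animals 2, 5, 23, 52, 55 and 65 and untreated animal 24. In tamoxifen animals 2, 23, 52 and 55 and in untreated animal 24, each IR site had a called JX and a called PB site within 300 bp. In tamoxifen animal 65 the JX call stood at the IR site and the nearest PB call just beyond that distance, at 109268526. In tamoxifen animal 5 the called sites differed by kind, past the gene end in IR, in intron 12 in JX and in intron 7 in PB. Tamoxifen animal 30 had 2058 PB counts near its IR site, at 0.939% of its highest PB site and so just uncalled.

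The JX sites were unevenly spread over animals. Tamoxifen animal 2 alone held 8 of the 27, and it had 689 called JX sites in all, the most of any animal, against a median of 23. The JX position 109310843 in intron 5 was called in 13 animals and listed in 102, and it was called in a control tumour and a control DNA too. It is counted once, for untreated animal 39, where it held 282 counts. Another JX position, 109317917 in intron 4, was listed in 66 animals and called in tamoxifen animal 46 with 26 counts. Both were spread positions, listed in at least 3 animals with no animal holding over 50% of the counts there. Over the whole table, 3114 of 6776 called JX sites were spread, against 17 of 2309 in IR and 34 of 2910 in PB. The JX values for all genes contain these sites. Under Nav3, 2 of the 27 JX sites, 1 of the 11 IR sites and 3 of the 17 PB sites were spread. The spread IR site was that of tamoxifen animal 46 in intron 12, listed in 14 animals. The spread PB sites were in tamoxifen animals 5, 65 and 70, so all of these IR and PB sites count towards the tamoxifen arm. The highest JX shares were 8.08% in tamoxifen animal 23 and 0.773% in untreated animal 31, and the median was 0.0917%.

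The PB sites with the largest shares were those of tamoxifen animal 23 (12.7%, 7710 counts) and tamoxifen animal 55 (7.44%, 79932 counts). Next came tamoxifen animal 52 with 1.41% and untreated animal 24 with 1.22%. Several PB calls rested on few counts. Tamoxifen animal 65 had 3 called PB sites of 35 to 51 counts in a PB total of 9081, and tamoxifen animal 9 had 2 sites of 50 and 27 counts in a total of 10515. Of the 17 PB sites, 3 lay more than 300 bp from any IR or JX line of the same animal. These 3 were the sites of tamoxifen animal 9, at 10005 and 3205 bp, and of tamoxifen animal 59, at 16266 bp.

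By arm, called IR sites under Nav3 were found in 9 of 72 tamoxifen animals (12.5%, exact binomial 95% interval 5.88 to 22.4%) and in 2 of 47 untreated animals (4.26%, 0.520 to 14.5%). PB sites showed the same order, with 11 tamoxifen animals (15.3%, 7.88 to 25.7%) and 2 untreated animals (4.26%, 0.520 to 14.5%). IR and PB libraries came from the same tumours, and 7 animals had a called site in both. The PB order is therefore not independent of the choice of Nav3. In JX the counts were 11 tamoxifen animals (15.3%) and 7 untreated animals (14.9%, 6.20 to 28.3%). Where every animal kept its call at a shared site, JX sites lay in 23.6% of tamoxifen and 23.4% of untreated animals, and IR sites in 12.5% and 6.38%. The intervals of the arms overlapped in each kind, and the JX order turned round when tamoxifen animal 2, 23 or 61 was left out (14.1% with tamoxifen, 14.9% without). A site in any kind was found in 16 tamoxifen animals (22.2%) and 7 untreated animals (14.9%). Among genes hit in at least 3 animals, none passed Fisher's exact test between arms after Benjamini-Hochberg adjustment. The share called was 0% of 40 genes tested in IR, 0% of 244 in JX and 0% of 55 in PB, and 0, 2 and 1 genes had an unadjusted p under 0.05. Genes hit in only 3 animals could not have passed, since the lowest unadjusted p of Fisher's exact test for them is 0.0592. The shares of 0% were thus fixed in part by the small numbers of animals per gene.

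The median number of called sites per animal was 12 IR, 21 JX and 11 PB sites in tamoxifen animals and 13 IR, 25 JX and 15 PB sites in untreated animals. The highest numbers ran the other way, at 334 IR, 689 JX and 187 PB sites in a tamoxifen animal and 91 IR, 336 JX and 70 PB sites in an untreated animal. Sites under Nav3 made up 0.585% of the 1539 called IR sites of tamoxifen animals and 0.260% of the 770 of untreated animals. In PB they made up 0.748% of 2005 sites with tamoxifen and 0.221% of 905 without, and in JX 0.456% of 4382 and 0.292% of 2394. Within donor chromosome 10 the IR sites lay in 9 of 53 tamoxifen animals (17.0%) and 2 of 37 untreated animals (5.41%), and the PB sites in 10 (18.9%) and 2 (5.41%). The JX sites lay in 11 (20.8%) and 6 (16.2%) of these animals. Among the 29 animals with donor chromosome 7, 1 tamoxifen animal had a PB site and 1 untreated animal had a JX site. By lane, the share of animals with an IR site was higher with tamoxifen in 7 of 9 lanes, lower in 1 and equal in 1. For PB it was higher in 6 lanes and lower in 2, and for JX it was higher in 6 and lower in 3. The IR lane shares split the counts by which Nav3 was chosen, with at most 2 animals hit per lane and arm, and are a description only.

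The difference between arms depended on the site threshold. With sites down to 0.1% of the highest site, PB sites were called in 33.3% of tamoxifen and 31.9% of untreated animals, and JX sites in 29.2% and 34.0%. IR sites were then called in 33.3% of tamoxifen and 21.3% of untreated animals. At 5% of the highest site the IR shares were 5.56% with tamoxifen and 2.13% without.

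**Figure D3:**
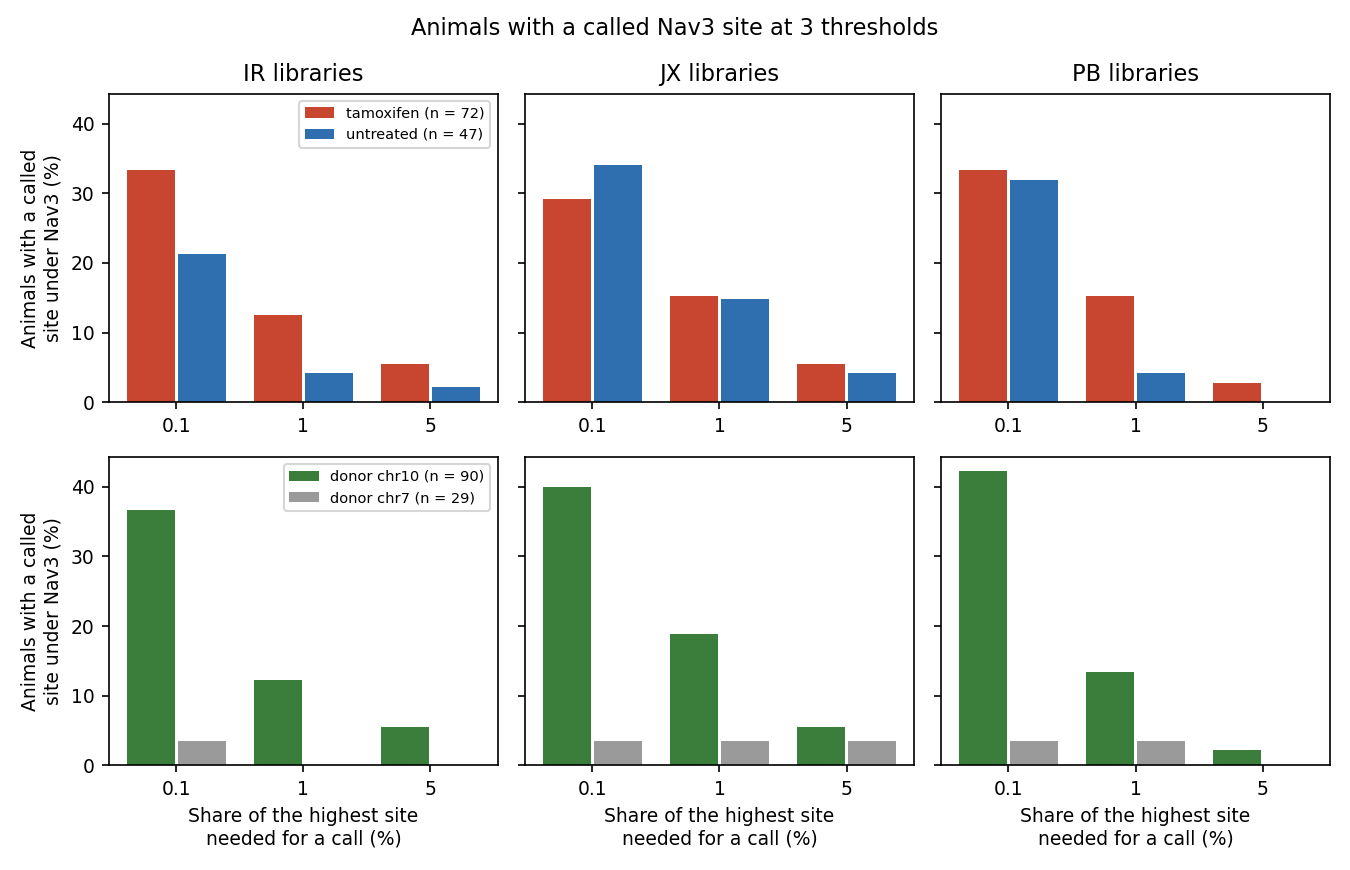
Animals with a called Nav3 site (y axis, %) when a call needs 0.1%, 1% or 5% of the animal's highest site (x axis), in IR, JX and PB; the upper row sets tamoxifen (red, n = 72) beside untreated animals (blue, n = 47) and the lower row donor chromosome 10 (green, n = 90) beside donor chromosome 7 (grey, n = 29). The PB bars of the arms, 15.3% and 4.26% at the 1% threshold, are 33.3% and 31.9% at 0.1%, while those of donor chromosome 10 are above those of donor chromosome 7 at each threshold.

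The donor chromosome is the chromosome from which the element starts, and Sleeping Beauty is known to reinsert often near its starting point. Nav3 lies on chromosome 10, so animals with donor chromosome 10 were set against those with donor chromosome 7. Since 90 of the 119 animals had donor chromosome 10, a gene picked for many hits is more likely to lie there, and the choice of Nav3 is not wholly independent of this comparison. Called sites were found in 11 of 90 animals with donor chromosome 10 and in 0 of 29 with donor chromosome 7 in IR, where a count of 0 allows up to 10.3% by the limit of 3 animals over the total and up to 11.9% by the exact binomial interval. JX sites were found in 17 and 1 of these animals, and PB sites in 12 and 1. None of these passed Fisher's exact test across all genes, with adjusted p = 0.363 (IR), 1 (JX) and 0.756 (PB). Of the genes tested by donor chromosome, 12.5% passed in IR, 0% in JX (11 of 244 at an unadjusted p under 0.05) and 7.27% in PB. With calls down to 0.1% of the highest site, Nav3 did pass in all 3 kinds, with sites in 36.7% of animals with donor chromosome 10 and 3.45% with donor chromosome 7 in IR (Fisher's exact test, adjusted p = 0.0345), 40.0% and 3.45% in JX (0.0397) and 42.2% and 3.45% in PB (0.0284). At that threshold the genes that passed numbered 11 in IR, 9 in JX and 7 in PB, Nav3 among them.

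The share of counts listed under Nav3, with no site call, was also higher in most animals with donor chromosome 10. In IR it ranged from 0.000193% to 26.5% with a median of 0.0609% for donor chromosome 10, and from 5.63e-05% to 0.207% with a median of 0.00170% for donor chromosome 7. The medians were 0.0376% and 0.00838% in JX and 0.0453% and 0% in PB, where 73 of 90 animals with donor chromosome 10 and 13 of 29 with donor chromosome 7 listed any Nav3 line. The ranges overlapped in every kind. The means were 0.605 ± 2.92% (SD, n = 90) for donor chromosome 10 and 0.0128 ± 0.0388% (SD, n = 29) for donor chromosome 7 in IR. The difference of means did not pass the two-sided permutation test with 100000 resamples (adjusted p = 0.247 in each kind). Tamoxifen animal 23 alone held 48.3% of the summed IR shares, 46.2% of the JX shares and 36.5% of the PB shares, and without it the mean of donor chromosome 10 was 0.314 ± 0.967% in IR (SD, n = 89). Without this animal the JX difference passed the permutation test (adjusted p = 0.0491), with means of 0.0999% for donor chromosome 10 and 0.0199% for donor chromosome 7. A permutation test of the mean rank, chosen after the shares were seen, passed in each kind, with mean ranks of 70.8 for donor chromosome 10 and 26.3 for donor chromosome 7 in IR (adjusted p = 1.5e-05, the smallest this test can give after adjustment in IR and PB), 66.2 and 40.7 in JX (0.00045) and 68.4 and 33.9 in PB (1.5e-05). It was not run across all genes, so no share of genes that pass stands beside it.

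**Figure D4:**
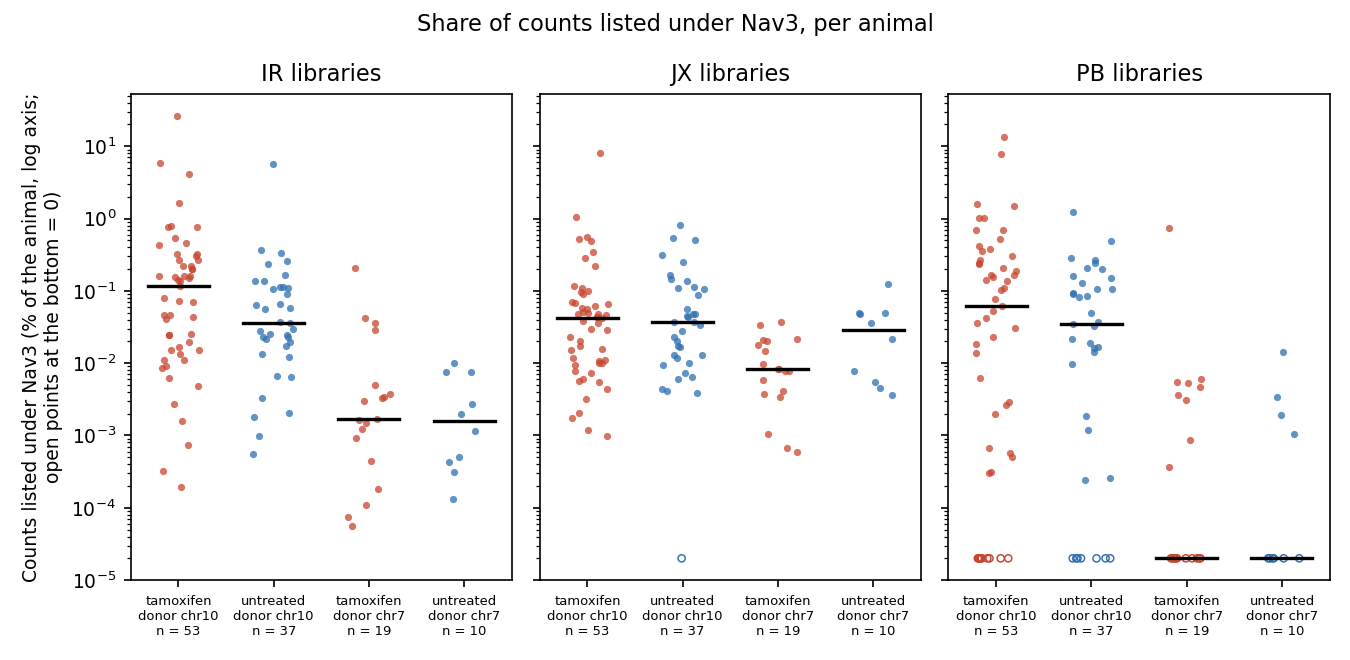
Share of an animal's counts listed under Nav3 (y axis, %, log scale, open points at the bottom for 0) for each animal in IR, JX and PB, by arm (tamoxifen red, untreated blue) within donor chromosome; black lines are medians. The medians of tamoxifen and untreated animals with donor chromosome 10, 0.116% and 0.0360% in IR, lie above 0.00170% and 0.00159% with donor chromosome 7, and the single highest point in each panel is tamoxifen animal 23.

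In control tumours the Nav3 share of IR counts had a median of 0.0233% and a highest value of 0.0380% over 5 tumours. None of the 5 had a called IR or PB site under Nav3, and the only called JX site was the shared position 109310843. In 7 control DNAs the IR median was 0.00172%, and 3 of them had a called JX site.

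Nav3 lies on the flank of a denser stretch of insertions on chromosome 10. The 100 kb bin with the most tamoxifen IR animals began 1800 kb downstream of the Nav3 start site, towards and past the gene end. It held 11 tamoxifen animals (15.3%) and 2 untreated animals (4.26%), a split that follows in part from picking it by its tamoxifen animals. The bins from 2000 and 2100 kb held as many animals in all, 13 each. These were 9 tamoxifen and 4 untreated animals in the bin from 2000 kb, and 6 (8.33%) and 7 (14.9%) in the bin from 2100 kb. In the first megabase downstream of the start site, which contains the gene, IR sites were called in 13 tamoxifen animals (18.1%) and 2 untreated animals (4.26%). These contain the 9 tamoxifen and 2 untreated animals with an IR site under Nav3, so the split is not independent of the choice of Nav3. In the second megabase IR sites were called in 21 tamoxifen (29.2%) and 11 untreated animals (23.4%), and in the third in 20 (27.8%) and 15 (31.9%). In the megabase upstream of the start site there were 6 tamoxifen (8.33%) and 2 untreated animals (4.26%). JX animals in the first megabase downstream numbered 14 with tamoxifen (19.4%) and 9 without (19.1%).

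**Figure D5:**
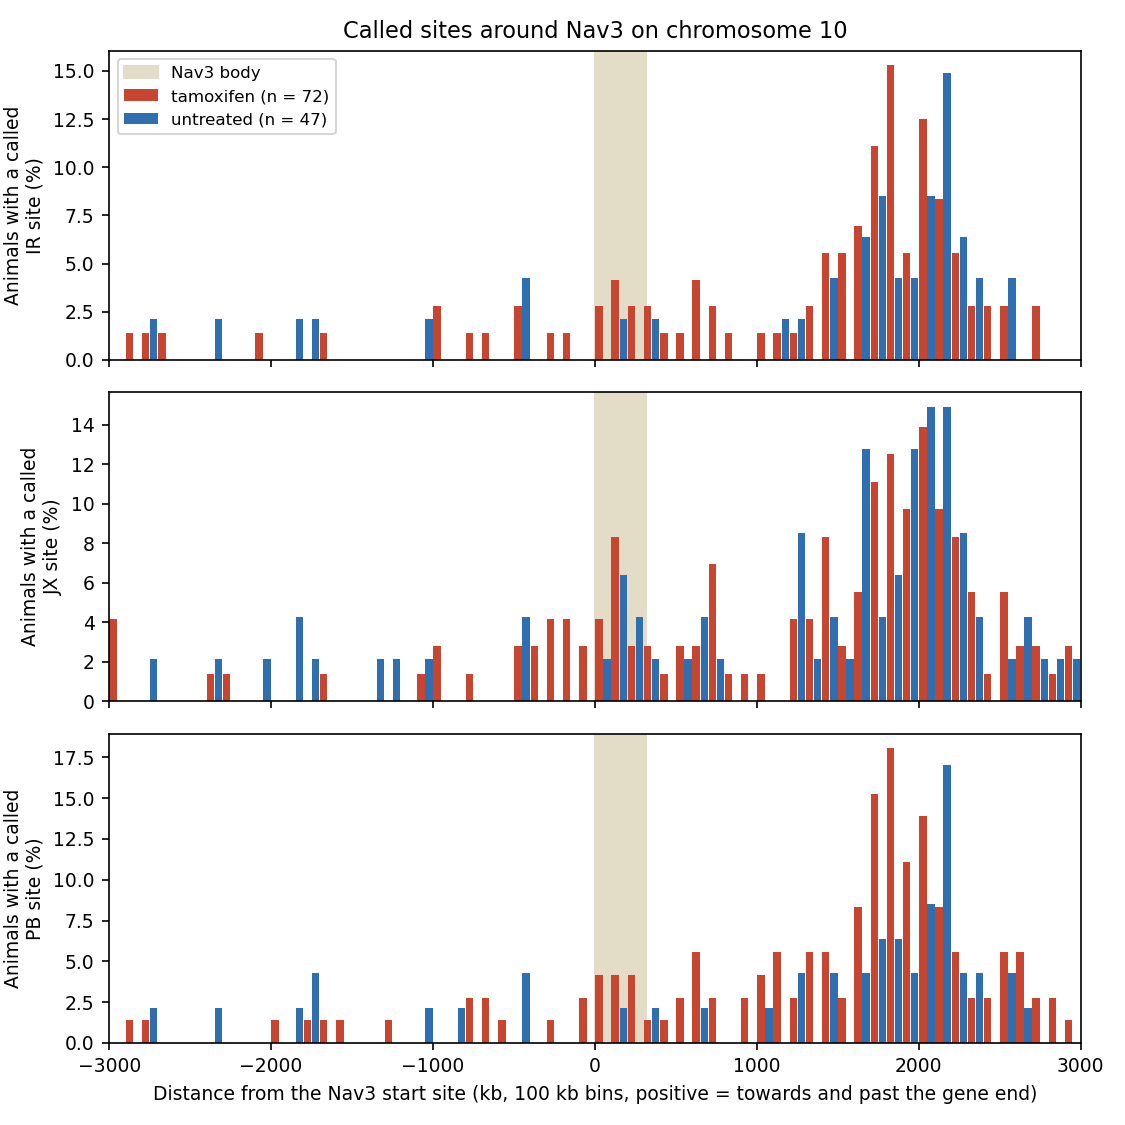
Animals with a called site (y axis, %) in 100 kb bins by distance from the Nav3 start site (x axis, kb, positive towards and past the gene end) in IR, JX and PB, for tamoxifen (red, n = 72) and untreated animals (blue, n = 47); the shaded band is the Nav3 body. In IR the tallest bars lie about 1700 to 2200 kb past the start site. There the bin from 1800 kb holds 15.3% of tamoxifen animals, against up to 4.17% over Nav3. The bin from 2100 kb holds 14.9% of untreated animals, against up to 2.13% over Nav3. In JX the bin from 100 kb, inside Nav3, holds 8.33% of tamoxifen animals.

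The nearest listed genes on the dense side were Gm5136, Syt1 and Pawr, and on the other side 9230102K24Rik, E2f7 and Csrp2. Syt1, the calcium sensor for vesicle release at synapses, had IR sites in 6 tamoxifen and 4 untreated animals. Pawr, which encodes a pro-apoptotic partner of WT1, had them in 8 and 1. Gm5136 had none in any kind. E2f7, an atypical E2F repressor of the cell cycle, Csrp2, a LIM-domain protein, and 9230102K24Rik had an IR site in 1 tamoxifen animal each and in no untreated animal. Per 100 kb of listed body, counting body sites only, IR sites were called in 2.84 animals for Nav3, 1.95 for Syt1 and 6.11 for Pawr. In PB the values were 3.47 for Nav3, 2.92 for Syt1 and 6.11 for Pawr.

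The animals with an IR site under Nav3 were compared with those of the other 39 genes hit in at least 3 animals, by the Jaccard index (shared animals over the union). All 5 of the closest genes lay on chromosome 10, which the animals share as donor. How many of the 39 genes lie on chromosome 10 was not counted, so this number has no background to be read against. Ptprr, a receptor-type tyrosine phosphatase, shared 3 animals with Nav3, which were 75% of its own 4 and 27.3% of those of Nav3 (index 0.25). Otogl, which encodes an otogelin-like protein, shared 6, or 22.2% of its 27 and 54.5% of those of Nav3 (index 0.188). It had IR sites in 28.9% of all animals with donor chromosome 10. Anks1b, a postsynaptic scaffold protein, Plxnc1, a semaphorin receptor, and Syt1 followed at 0.167 each, with 2, 2 and 3 shared animals.

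Called IR sites under Nav3 had no common orientation, with 5 in the orientation of the gene and 6 opposite. JX had 16 in the orientation of the gene and 11 opposite. PB sites were labelled 6 in that orientation and 11 opposite, but PB labels ran against IR labels at the same insertion. They were opposed at 9 of 10 Nav3 sites with both values and at 98.1% of 1510 other IR sites. Turned to the IR labels, the PB sites were 11 in the orientation of the gene and 6 opposite. The exact binomial test across all genes with at least 6 sites gave adjusted p = 1 (IR), 1 (JX) and 0.636 (PB), whichever way the PB labels run. This test takes sites as independent, although several lay in 1 animal. With 1 site per animal the split was 9 and 9 in JX, and 8 and 5 in PB with the labels turned (exact binomial test, adjusted p = 1 in each). Of the genes tested, 7.14% passed in IR, 0% of 34 in JX and 0% of 17 in PB, with 1 gene at an unadjusted p under 0.05 in each kind. By arm, the IR sites of tamoxifen animals were 5 in the orientation of the gene and 4 opposite, and those of untreated animals were 0 and 2. The body sites alone gave 5 and 4 (IR), 15 and 7 (JX), and, with the labels turned, 11 and 3 (PB) (exact binomial test, adjusted p = 1, 0.795 and 0.402).

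The single Nav3 site at which IR and PB labels were not opposed was that of tamoxifen animal 65, which rested on 1 PB count. In JX, 9 of the 27 Nav3 sites had over 10% of their counts in the other orientation, against 1 of 11 IR sites and 0 of 17 PB sites. JX labels were also opposed to IR labels at 4 of 10 Nav3 sites with both values, and at 19.7% of 1487 other IR sites. In tamoxifen animal 30 they were opposed with only 3.11% of the JX counts at the called site in the other orientation. The JX orientation is therefore not settled, and the JX splits are of labels as listed. Without tamoxifen animal 2, the JX sites were 10 in the orientation of the gene and 9 opposite.

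Nav1 and Nav2 carried far fewer insertions. Nav1, on chromosome 1, spans at least 148.9 kb of listed body and had no called site in any kind of library in 119 animals. Its lines made up 0.00397% of IR counts, and a count of 0 in 72 tamoxifen animals allows a share of up to 4.17%, against 6.38% in 47 untreated animals, by the limit of 3 animals over the total (4.99% and 7.55% by the exact binomial interval). Nav2 is responsive to retinoic acid and takes part in cerebellar development in mice. It lies on chromosome 7 and has the longer listed body, 649.6 kb, and its lines made up 0.00838% of IR counts. It had 1 called IR site, in intron 2 at 56351696 in tamoxifen animal 15, with 3274 counts (0.108%), and 1 called JX site, in intron 2 at 56407573 in untreated animal 27, with 65 counts. Both animals had donor chromosome 7. Neither gene reached the 3 animals needed for the tests of called sites.

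The Nav2 share of IR counts was lower with donor chromosome 10, at 0.00597 ± 0.0122% (SD, n = 90), than with donor chromosome 7, at 0.0207 ± 0.0389% (SD, n = 29). This difference passed the two-sided permutation test (adjusted p = 0.00558 over the 3 kinds, 0.0167 over the 9 relations of the 3 genes). Without tamoxifen animal 15, which had the highest share, the mean with donor chromosome 7 was 0.0144% and the difference moved to -0.00847 percentage points, and it still passed (permutation test, adjusted p = 0.0217). Without lane 2, which holds that animal, the difference was -0.00911 percentage points. The groups overlapped, with highest shares of 0.0952% and 0.196%, and their medians were 0.00155% and 0.00408%. In 5 control tumours the Nav2 share of IR counts had a higher median, 0.0284%, and a highest value of 0.127%. A called JX site under Nav2 was found in 1 of them. The donor difference passed within tamoxifen animals (permutation test, adjusted p = 0.0221) and not within untreated animals (0.279), of which 10 had donor chromosome 7. The difference between the arms was not tested. In JX and PB the Nav2 difference did not pass (permutation test, adjusted p = 0.354 and 0.0589). The PB difference did pass without tamoxifen animal 23 (permutation test, adjusted p = 0.0440), without tamoxifen animal 61 (0.0150), with donor labels permuted only within lanes (0.0260) and with any of lanes 6, 7, 8 and 9 left out (0.0139 to 0.0487). The Nav1 share was 0.00181 ± 0.00396% with donor chromosome 10 (SD, n = 90) and 0.0105 ± 0.0502% with donor chromosome 7 (SD, n = 29) in IR and did not pass (permutation test, adjusted p = 0.222). Its mean with donor chromosome 7 rested on tamoxifen animal 54, at 0.271%. Without this animal the mean with donor chromosome 7 was 0.00120%, below the 0.00181% with donor chromosome 10.

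Of a list of 41 genes for microtubule binding and neuronal migration, with Nav1 and Nav2 among them, 37 were in the table. IR sites were called in 6 of these 37 (16.2%), JX sites in 14 (37.8%) and PB sites in 7 (18.9%), against 6.39% (IR), 16.5% (JX) and 7.89% (PB) of all genes of the table. The median number of animals per gene was 0 for the list and for all genes in each kind, while the means were 0.162 (IR), 0.459 (JX) and 0.189 (PB) for the list and 0.0778, 0.225 and 0.0975 for all genes. No count was set by gene length, and long genes offer more positions. The members with the largest sum of animals over the 3 kinds, in which an animal counts once per kind, were Camsap1, which binds microtubule minus ends, Macf1, which links microtubules to actin, Clip2, a plus-end linker protein, and Dync1h1, the heavy chain of cytoplasmic dynein. Macf1, with JX sites in 2 tamoxifen and 1 untreated animals, was the only one hit in enough animals for the test between arms. It did not pass (Fisher's exact test, adjusted p = 1), and with 3 animals it could not have. The lowest unadjusted p that Fisher's exact test gives for 3 animals between these arms is 0.0592. Camsap1 had sites in 2 animals over all kinds, and Clip2 and Dync1h1 in 1 tamoxifen animal each, seen in all 3 kinds. Counting each animal once, Macf1 had 3 animals and Camsap1, Nav2 and Trio 2 each, of which Trio was named after its values were seen.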

How the data were processed

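Insertion sites were measured in tumour DNA of 119 animals of the 2 arms, sequenced in 9 lanes. The authors deposited unscaled whole-number counts for every position and library. Coordinates are mm9 (per the submitters' processing notes), while aligner, counting rule and annotation were not given in the sources used here. Arm, donor chromosome, lane and listed days came from the authors' sheet. Tamoxifen animal 61 joins 2 spellings of an ID that differ by a leading zero and list different days.

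Counts were summed per animal and kind of library and called as stated above (Python 3.11.15, pandas 2.3.3, scipy 1.17.1). For genes with sites in at least 3 animals, arms and donor chromosomes were compared by two-sided Fisher's exact tests, orientation with exact binomial tests against an even split, and shares with permutation tests of the mean, with Benjamini-Hochberg adjustment and a threshold of 0.05. The tests were tried on simulated data. Nav3, Nav1 and Nav2, the microtubule list and the rules were chosen with earlier results of these data known. Genes named besides them were the 5 closest by Jaccard index, the 3 nearest on each side and the 4 list members hit most. Nothing says whether separate tumours shared a litter. The Fisher and permutation tests took the animal as the unit and hold for these animals only, while the orientation test took the site as the unit. Alternatives changed the site threshold, the count minimum, the merging distance, the crediting of shared sites, the removal of spread positions, the library end, the region, the minimum of animals, and the arms, donors and lanes included. Leaving out single animals, the rank test, permuting within lanes and all Nav1 and Nav2 alternatives were chosen after seeing the data.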

Additional observations from a re-analysis of the deposited data

Results flagged for a closer look

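Of 15 small groups of 4 to 10 samples examined for a sample far from the rest, 6 had one. The limit used passes about 1 in 20 groups by chance when values are normally distributed, which was not shown for these shares, many of them 0. Among the 10 untreated animals with donor chromosome 7, animal 46 held the highest Nav3 share of JX counts, 0.126%, with the next at 0.0494%. Animal 27 of that group held the highest Nav3 share in PB, 0.0141% with the next at 0.00342%, and the highest Nav2 share in JX, 0.0316% with the next at 0.00130%. Animal 44 was the only one of the group with Nav1 counts in PB, at 0.00290%. In PB, 1 control tumour had a Nav3 share of 0.0277% with the next at 0.000858%, and 1 control DNA had 0.160% while the other 4 had none.

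The 8 animals of no given arm entered no comparison. Their highest Nav3 shares were 1.06% in IR, 0.807% in JX and 1.69% in PB, above the highest control tumour (0.0380%, 0.0564% and 0.0277%). One of them had called sites in intron 22, with 22837 IR counts at 109176974, a JX call at the same position and 1287 PB counts at 109176835.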

How the results depend on the processing

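The arm difference of Nav3 (percentage points, tamoxifen minus untreated) was 8.24 (IR), 0.384 (JX) and 11.02 (PB). With 0.1% of the highest site it was 12.1 (IR), -4.88 (JX) and 1.42 (PB), and with 5% it was 3.43, 1.30 and 2.78. Left end libraries alone gave 8.33 in IR. In JX it turned to -1.005 with a count minimum of 50, to -0.266 in the gene body, and to -0.809 without tamoxifen animal 23, 2 or 61, alternatives chosen after the data were seen. Each lane left out in turn gave 6.38 to 10.8 (IR), -4.52 to 6.71 (JX, below 0 for 6 of 9 lanes) and 7.37 to 16.0 (PB).

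The donor difference in animals with a site (12.2, 15.4 and 9.89 percentage points in IR, JX and PB, chromosome 10 minus 7) passed only with 0.1% of the highest site (33.2, 36.6 and 38.8). The donor difference in mean share passed without tamoxifen animal 23 in JX (0.0800) and by mean rank (44.5, 25.5 and 34.5 ranks in IR, JX and PB). Genes past the donor test numbered 5 of 40 tested (IR), 0 of 244 (JX) and 4 of 55 (PB). With 0.1% of the highest site they numbered 11, 9 and 7, with 5% they numbered 2 in IR and 1 in PB, and with genes hit in at least 5 animals 5 passed in JX. These settings also change the number of genes tested, so the counts are not to be read as shares. The share of IR sites in the orientation of the gene, 45.5%, was 55.6% in the gene body and 75% with left ends only. The Nav2 JX difference turned to 0.000827 in untreated animals and ranged from -0.00279 to 0.000981 over the lanes left out, with only lane 2 above 0. For shares, settings of the site call used counts at called sites.

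No other alternative changed the side of the threshold or the direction for Nav3. The cause of these changes was not tested. The PB depth, down to 1714 counts in an animal, limits what a missing PB site shows. No paired analysis was possible because no replicate numbers tie an animal of 1 arm to one of the other. All 9 lanes held both arms. With donor labels permuted only within lanes, the Nav3 share differences did not pass (permutation test, adjusted p = 0.231 in each kind). Without tamoxifen animal 54 the Nav1 difference turned to 0.000606 in IR and 0.000625 in JX.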
